A study of Rattus norvegicus with 24 samples.

Results

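The axon guidance genes described here are the semaphorins, plexins, neuropilins, ephrins, Eph receptors, Slits and Robo receptors that single dorsal root ganglion (DRG) neurons of the rat contained at a measurable level. They were chosen by name, as the genes whose symbol starts with Sema, Plxn, Epha, Ephb, Efna, Efnb, Robo or Slit and goes on with the number or letter of the member, together with Nrp1 and Nrp2, and by a mean of at least 1 CPM (the counts of a gene scaled to a common total per cell) over all neurons that passed quality control. Of 59 genes with such a symbol among the 32881 genes of the files, 42 met the rule: 17 of 20 semaphorins, 7 of 9 plexins, both neuropilins, 2 of 5 ephrin-A and 2 of 3 ephrin-B ligands, 4 of 8 EphA and 3 of 5 EphB receptors, 3 of 3 Slits and 2 of 4 Robo receptors. Just inside the threshold lay Sema7a (1.12 CPM), Efna5 (1.23 CPM) and Sema3b (1.24 CPM), and just outside it Efna4 (0.921 CPM), Plxnb3 (0.784 CPM) and Epha3 (0.755 CPM).

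All neurons came from L4 and L5 DRG of male Sprague-Dawley rats, for which the labels give a weight and no age. In the spared nerve crush (SNC) operation, the tibial and common peroneal branches of the left sciatic nerve were crushed and the sural branch was left intact, while in sham rats the nerve was only exposed. Fluorescent dyes injected into the branches before the operation marked the neurons to be picked by mouth pipette, and these dye-labelled neurons formed 16 DRG samples, with 4 in sham and 4, 3 and 5 at 1, 3 and 7 days post-injury (dpi). The sample labels count 113 indirectly and 127 directly injured neurons at 1 dpi, 116 and 124 at 3 dpi and 120 and 120 at 7 dpi, and give 108 for each branch in sham, where no branch was crushed. The names of the cells do not carry the branch, so that crushed and uncrushed neurons were pooled in every value after SNC. A further 7 libraries of sham neurons were taken at day 0 (3 libraries), day 1 (2), day 3 (1) and day 7 (1). They are called the added sham neurons, and the labels do not state whether their rats had received dye.

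Semaphorins, ephrins and Slits are the cues that steer growing axons, and plexins with neuropilins, Eph receptors and Robo receptors are the receptors that read them on the growth cone. Most of these cues repel or collapse a growth cone, while some attract it or promote adhesion, depending on the receptors the neuron holds. In the DRG they are known to sort the central and peripheral branches of sensory neurons during development, and several remain expressed in the adult ganglion.

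Quality control kept 930 of 936 dye-labelled and 503 of 528 added sham neurons, with a median of 239292 and 340145 unique molecular identifiers (UMIs) per neuron. Summed per DRG sample, the depth ran from 4002503 to 28975829 UMIs in the dye-labelled samples and from 14004136 to 40732975 in the added sham libraries. All 8 neuronal marker genes on the list used were detected in every group, at a summed 6660 to 9200 CPM in the dye-labelled samples and 5510 to 6370 CPM in the added sham libraries. The injury genes did not separate SNC from the dye-labelled sham samples: of 7 tested, 0 passed an adjusted p of 0.05 in any comparison of SNC with sham (edgeR's quasi-likelihood test with Benjamini-Hochberg adjustment; 0 also had an unadjusted p under 0.05). Sprr1a, a regeneration-associated gene, lay between 65.3 and 282 CPM in the dye-labelled sham samples and between 0 and 0.223 CPM in the added sham libraries, and Gal between 606 and 2320 CPM and between 1.71 and 22.2 CPM. The sham sample named Xin, with 24 neurons, stood apart from the other sham samples. It held the lowest level of 26 and the highest of 10 of the 42 guidance genes among the 4 sham samples, and it had no PEP3-like, NF-like or NP-like neuron. Reverse transcription took place in an earlier year for 3 of 4 sham and 3 of 5 samples at 7 dpi, and in the year after for all other dye-labelled samples.

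Guidance genes were present in nearly every neuron, and many of them at once. A dye-labelled neuron had at least 1 UMI of 21 of the 42 genes in the median (from 0 to 39), and an added sham neuron of 26 (from 4 to 42). When each neuron was thinned to 20000 UMIs, the medians were 9 and 12. In the dye-labelled neurons 20 genes were found in at least 50% of the cells, and 26 in the added sham neurons. The 5 most widespread genes of the dye-labelled neurons were Efna1 (96.0% of cells), Sema4f (94.2%), Sema3c (92.5%), Robo2 (90.4%) and Sema6d (90.4%). Since UMIs were counted at the 3′ end of each transcript, CPM do not grow with transcript length and can be set side by side between genes. Over all neurons of both collections, the highest mean levels were those of Robo2 (152 CPM), Sema3c (109 CPM), Efna1 (105 CPM), Sema4f (92.1 CPM), Sema6d (77.9 CPM), Plxna2 (62.0 CPM), Plxnd1 (56.7 CPM) and Epha5 (45.7 CPM).

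**Figure D1:**
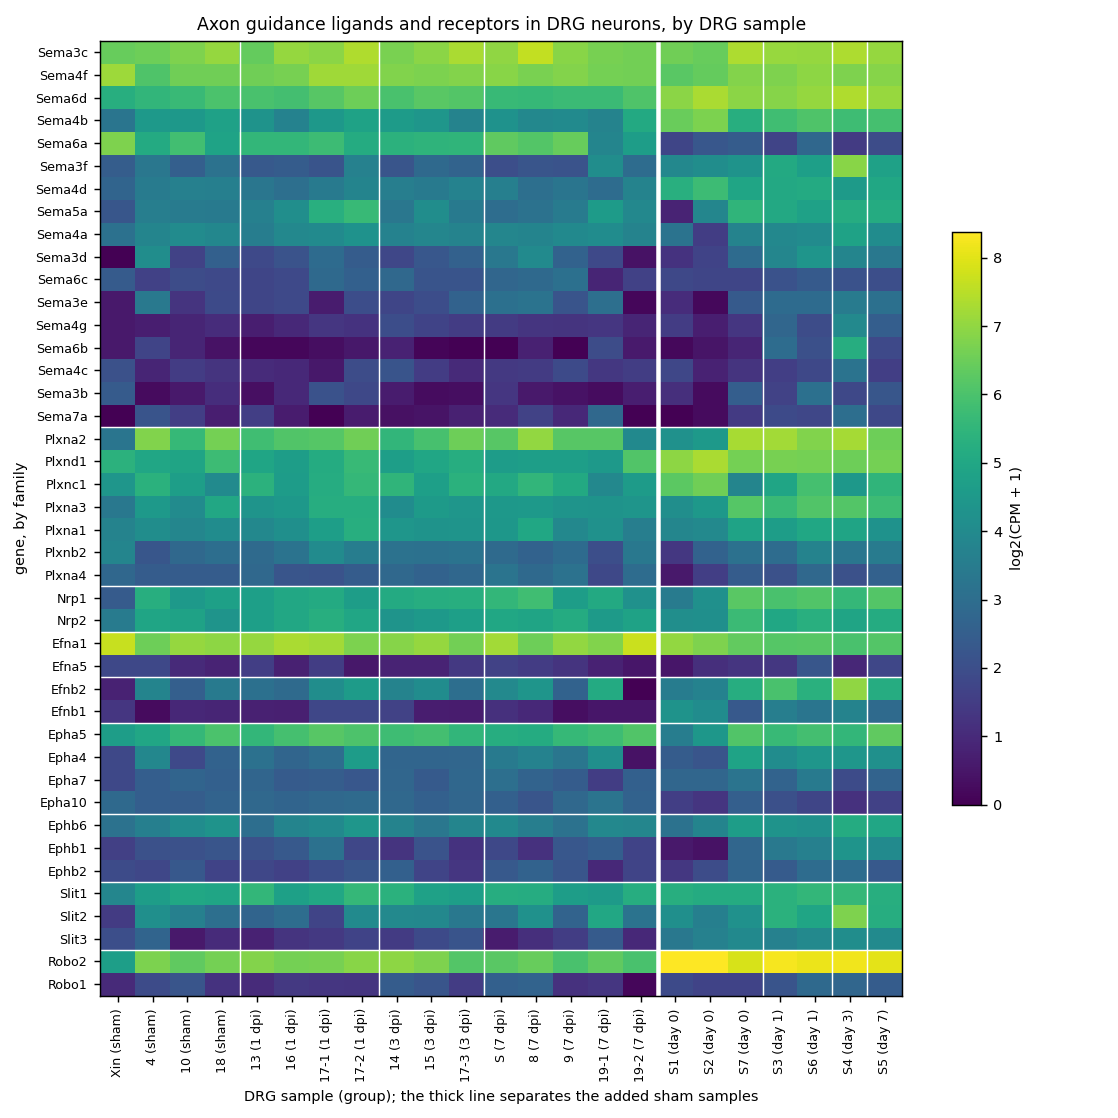
Level of each of the 42 guidance genes (y axis, by family) in each DRG sample (x axis, with its group), as log2(CPM + 1) in colour. Robo2, Sema3c, Efna1 and Sema4f are bright in nearly all columns, and Sema6a turns from 13.0 to 107 CPM in the dye-labelled samples on the left to 1.77 to 5.94 CPM in the added sham libraries right of the thick line.

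The semaphorins were the family with the highest summed level, at 384 ± 34.1 CPM (SD, n = 4) in sham, 456 ± 99.3 (n = 4) at 1 dpi, 424 ± 29.6 (n = 3) at 3 dpi and 423 ± 58.4 (n = 5) at 7 dpi. The SNC groups overlapped sham, which ranged from 336 to 413 CPM. Most of that sum came from 4 genes. Sema3c, a secreted class 3 semaphorin, ranged from 83.2 to 194 CPM over the 16 dye-labelled samples. Sema4f, a membrane-bound class 4 semaphorin, ranged from 66.1 to 145 CPM. Sema6d, a class 6 semaphorin that binds class A plexins, ranged from 37.2 to 90.6 CPM. Sema6a, of the same class, ranged from 13.0 to 107 CPM and so varied more between samples than the others. At the low end, Sema6b, Sema7a and Sema3b were found in 3.66, 8.06 and 10.2% of the dye-labelled neurons.

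Among the receptors of semaphorins, Plxna2, Plxnd1 and Plxnc1 led the plexins, and both neuropilins, the co-receptors that bind secreted class 3 semaphorins, were present. The plexins summed to 189 ± 46.0 CPM (SD, n = 16) in the dye-labelled samples. Nrp1, the co-receptor best known for Sema3a, was at 30.5 ± 11.6 CPM (SD, n = 16), with the lowest level in sham sample Xin (4.25 CPM) and the highest in sample 8 at 7 dpi (54.7 CPM). Nrp2, the co-receptor of Sema3f, was at 26.3 ± 6.60 CPM (SD, n = 16), again lowest in Xin (10.2 CPM). Plxnd1, which Sema3e can bind without a neuropilin, lay between 21.6 and 52.6 CPM in 15 of the 16 samples and at 67.4 CPM in sample 19-2 at 7 dpi.

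The Eph and ephrin members were fewer. Efna1, a ligand anchored to the membrane by a lipid, made up nearly all of the ephrin level, with 91.5 to 210 CPM over the dye-labelled samples. Efnb2, a transmembrane ephrin, was absent from sample 19-2, where no UMI was counted, and reached 33.7 CPM in sample 19-1, also at 7 dpi. Epha5 was the leading receptor at 24.5 to 73.3 CPM. Epha10, whose kinase domain is thought to be inactive, stayed between 3.58 and 8.45 CPM, a narrow range among the 42 genes.

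Robo2, a receptor of the Slits, was at 87.6 ± 25.5 CPM (SD, n = 16) in the dye-labelled samples. Its level in sham sample Xin was 25.0 CPM, and the other 15 samples ranged from 62.3 to 123 CPM. Robo1 was far lower, at 0.105 to 5.41 CPM. Of the ligands, Slit1 was at 30.8 ± 8.73 CPM (SD, n = 16), Slit2 at 1.75 to 31.7 CPM and Slit3 at 0.499 to 5.45 CPM.

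The promoters of 3 of these genes are printed because they come back below as genes whose level differed between the 2 sham collections, with Epha10 and Efna1 lower and Robo2 higher in the added sham neurons. The sequences are those of RefSeq for the GRCr8 build, 250 bases before to 50 after the start of the gene, in which 32 of the 42 genes had an entry, while the count files were made on Rnor_6.0. Capitals mark the letters TGACTCA or TGAGTCA, the site that AP-1 factors such as Atf3 with Jun can bind, and GGGCGG or CCGCCC, the GC box that Sp factors bind.
Epha10 (chr5:142424046-142424345, + strand): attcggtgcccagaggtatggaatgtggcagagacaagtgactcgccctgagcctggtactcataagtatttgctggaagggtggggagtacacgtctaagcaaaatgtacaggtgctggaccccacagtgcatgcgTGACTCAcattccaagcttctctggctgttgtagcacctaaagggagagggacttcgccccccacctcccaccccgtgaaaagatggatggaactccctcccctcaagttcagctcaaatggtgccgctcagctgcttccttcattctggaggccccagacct
Efna1 (chr2:176986772-176987071, - strand): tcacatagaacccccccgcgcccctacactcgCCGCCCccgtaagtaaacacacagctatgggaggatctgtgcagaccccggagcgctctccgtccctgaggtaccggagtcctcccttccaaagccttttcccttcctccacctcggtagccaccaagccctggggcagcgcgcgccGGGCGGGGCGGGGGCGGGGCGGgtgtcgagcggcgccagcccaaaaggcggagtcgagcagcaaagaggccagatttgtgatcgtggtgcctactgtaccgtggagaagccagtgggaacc
Robo2 (chr11:26526363-26526662, - strand): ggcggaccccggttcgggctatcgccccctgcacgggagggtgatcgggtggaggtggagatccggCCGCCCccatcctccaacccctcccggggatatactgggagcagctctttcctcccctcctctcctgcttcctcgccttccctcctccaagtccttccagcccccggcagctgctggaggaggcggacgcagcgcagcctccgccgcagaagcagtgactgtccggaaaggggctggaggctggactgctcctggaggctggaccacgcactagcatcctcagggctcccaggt
The Epha10 promoter held 1 AP-1 match and was the only one of the 32 to do so, where 4.63% of all 33469 promoters of that length held one. The Efna1 promoter held 5 GC boxes, 4 of them in 1 run in which they overlap or abut, and the Robo2 promoter held 1. A GC box was found in 15 of the 32 guidance gene promoters and in 33.1% of all promoters, and the cyclic AMP response element TGACGTCA in 0 of 32 and in 1.83%. These are matches of letters on both strands and no evidence of binding.

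The levels of most guidance genes varied widely between types of neuron. The 930 dye-labelled neurons fell into 10 clusters when the guidance genes were left out of the variable genes, of which 15 had been among them, and the 503 added sham neurons into 7. Clusters were named from marker genes, such as Shox2 and Pvalb for neurofilament (NF-like) neurons, Mrgprb4 for nonpeptidergic (NP-like) nociceptors, Il31ra, Nppb and Sst for pruriceptors, Cck and Kit for peptidergic (PEP-like) nociceptors, Kcng1 and Enpp6 for the PEP3-like type and Trpm8 for cold-like neurons, and clusters without enough markers were left unnamed and are called by a leading gene. Levels within a cluster are means over the DRG samples with at least 3 of its cells. They describe clusters made from the same cells and carry no test. Of the dye-labelled clusters, the highest level of 13 guidance genes lay in the NF-like cluster, of 7 in the Nppa cluster, of 6 in the NP-like cluster and of at most 4 in any other. For 22 of the 42 genes, the leading cluster lay above the rest of the cells in every DRG sample that could be counted. The leading cluster of a gene was chosen by its mean over the same samples, which favours that outcome. No share over all genes was taken for any count of genes by leading cluster. The fold between the highest and lowest cluster had a median of 8.99 over the 37 genes for which it could be taken, from 1.98 for Efna1 to 271 for Sema3d, and was over 10 for 18 genes. The other 5 genes (Slit3, Sema3e, Sema6b, Efna5 and Sema7a) were at 0 in at least 1 cluster.

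**Figure D2:**
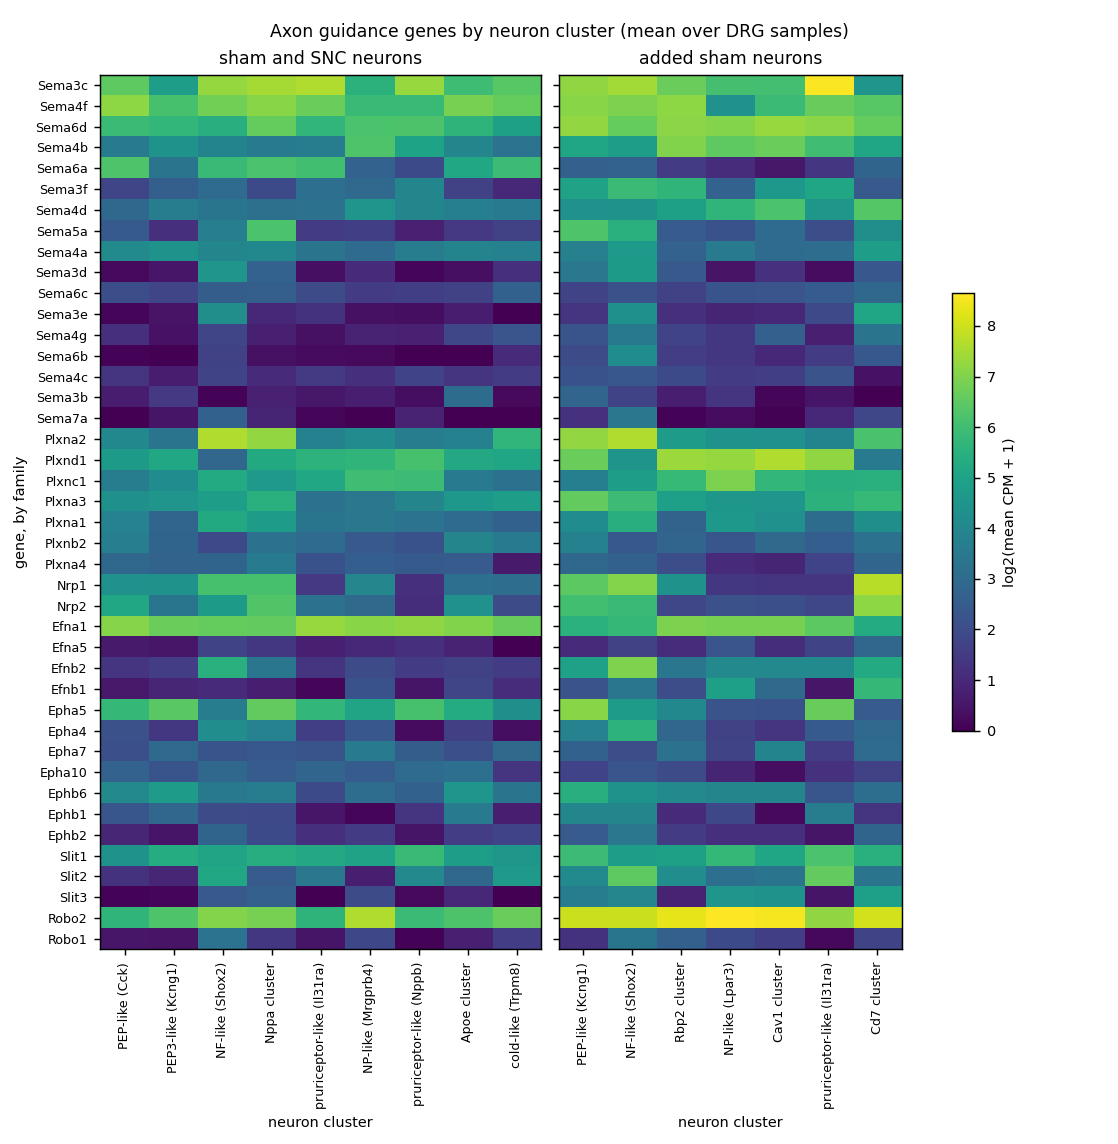
Mean level of each guidance gene (y axis) in each neuron cluster (x axis), as log2(mean CPM + 1) in colour, for 9 of the 10 dye-labelled clusters on the left and the 7 added sham clusters on the right. The NF-like columns carry the brightest cells of Plxna2 (197 and 195 CPM) and Efnb2 (43.9 and 126 CPM) in both panels, and the row of Sema6a is dark throughout the right panel.

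NF-like neurons, the large-fibre mechanoreceptors, carried the widest set. Plxna2, a receptor of class 6 semaphorins, was at 197 ± 65.6 CPM (SD, n = 12) there and at 149 CPM in the Nppa cluster, against 8.94 CPM in PEP3-like neurons. Efnb2 was at 43.9 ± 17.1 CPM (SD, n = 12), with 9.47 CPM in the next cluster. Sema3d was at 21.7 ± 12.9 and Sema3e at 18.2 ± 7.93 CPM (SD, n = 12 each), both secreted ligands that lay at 5.55 and 1.42 CPM or lower in every other cluster. Slit2 was at 35.6 ± 21.1 CPM (SD, n = 12) in NF-like and 24.3 CPM in cold-like neurons, and at 0.673 CPM in NP-like neurons. Robo1 was at 8.76 ± 4.60 and Epha4 at 17.8 ± 10.3 CPM (SD, n = 12 each). By contrast Plxnd1 was lowest in the NF-like neurons, at 6.25 CPM. The added sham neurons, clustered apart from the dye-labelled ones, also had 13 guidance genes highest in their NF-like cluster, and 9 were the same genes: Plxna2, Efnb2, Plxna1, Epha4, Sema3d, Sema6b, Robo1, Sema4c and Sema7a. In the dye-labelled neurons the lead of Sema4c (2.38 ± 3.06 CPM, next cluster 2.35 CPM) and of Sema6b (2.20 ± 3.25 CPM, next 1.09 CPM) lay within the spread (SD, n = 12).

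The Nppa cluster, in which S100a16, Kcnv1, Nppa and Nmb also led, was the second place of high semaphorin receptors. Nrp2 was at 77.5 ± 28.0 CPM (SD, n = 15) there, followed by 35.7 CPM in PEP-like neurons. Nrp1 was at 68.8 CPM, beside 69.0 ± 32.9 CPM (SD, n = 12) in the NF-like cluster, 2 levels that did not differ beyond their spread. Sema5a, a semaphorin with thrombospondin repeats, was itself among the 10 leading genes of this cluster, at 73.1 ± 49.1 CPM (SD, n = 15), against 12.1 CPM in NF-like neurons and 0.725 to 4.43 CPM elsewhere. In pruriceptor-like neurons led by Nppb, Nrp1 and Nrp2 were near absent, at 1.29 and 1.21 CPM.

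The small-fibre types carried other combinations. NP-like neurons had the highest Robo2 (195 ± 35.2 CPM, SD, n = 8), Plxnc1 (63.3 ± 24.7 CPM), Sema4b (75.2 ± 32.0 CPM) and Sema4d (21.6 ± 8.2 CPM) of the dye-labelled clusters. Plxnc1 was at 59.6 ± 34.0 CPM in the pruriceptor-like neurons led by Nppb and so did not differ beyond the spread. Sema4b, a class 4 semaphorin, came next at 31.5 CPM in the pruriceptor-like neurons led by Nppb. Those neurons also had the highest Plxnd1 (68.9 ± 24.7 CPM), Slit1 (57.2 ± 24.1 CPM) and Sema3f (14.6 ± 4.23 CPM, SD, n = 8 each). Sema3c was highest in the pruriceptor-like neurons led by Il31ra, at 194 ± 46.8 CPM (SD, n = 12), with 177 ± 68.2 CPM in the Nppa cluster, within the spread, and lowest in PEP3-like neurons, at 28.1 CPM. In the added sham neurons Sema3c was highest in the pruriceptor-like cluster (383 ± 86.1 CPM, SD, n = 6). That cluster shared leading genes such as Nppb, Sst and Ly86 with the dye-labelled cluster led by Nppb. Robo2 and Plxnc1 were highest in the NP-like cluster led by Lpar3 (400 ± 36.4 and 122 ± 47.1 CPM, SD, n = 7). In the unnamed added cluster led by Rbp2, which shared Mrgprb4 and Cldn3 with the dye-labelled NP-like cluster, they were at 317 and 54.8 CPM. PEP-like neurons led in Sema4f (144 ± 32.4 CPM, SD, n = 16) and Sema6a (75.2 ± 35.4 CPM, SD, n = 16), both within the spread of the Nppa cluster (136 ± 30.8 and 71.6 ± 45.4 CPM), and PEP3-like neurons in Ephb6 and Sema4a. Sema3b was found mainly in the unnamed cluster with high glial genes such as Apoe, at 7.40 ± 5.38 CPM (SD, n = 7), against 0.0705 to 1.71 CPM elsewhere. The part of glial RNA in its level was not tested.

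Sema6a was high in some clusters and near absent from others. Its level was between 55.8 and 75.2 CPM in the PEP-like, NF-like and cold-like neurons, the pruriceptor-like neurons led by Il31ra and the Nppa cluster, and 34.9 CPM in the Apoe cluster. It was 8.93 CPM in PEP3-like, 5.56 CPM in NP-like and 2.85 CPM in the pruriceptor-like neurons led by Nppb. Sprr1a was also lowest in these 3 clusters, at 20.2, 27.1 and 11.1 CPM, against 91.5 to 262 CPM in the other clusters given here. In the 7 added sham clusters, where Sprr1a was at 0 to 0.0632 CPM, Sema6a lay between 0.476 and 5.83 CPM.

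Sema6a and Sprr1a were then compared from cell to cell, by a split chosen after the values had been seen. In each of the 16 dye-labelled samples, neurons were divided at the median Sprr1a level of the sample. Sema6a was higher in the neurons with more Sprr1a in 16 of 16 samples (mean 73.3 against 27.8 CPM), as 1.52% of all genes were, while 3.98% were higher in at least 15. Plxnd1 was lower in 16 of 16 (27.3 against 41.0 CPM), as 1.88% of all genes were. Robo2 (70.3 against 104 CPM), Sema4b (11.9 against 26.4 CPM), Slit1 (25.9 against 35.7 CPM) and Epha5 (44.1 against 57.6 CPM) were lower in 15 of 16, where 5.01% of all genes were lower in at least 15. Sema4f and Ephb2 were higher, and Sema4d lower, in 14 of 16, a count for which the share of all genes was not taken. The neurons on either side of the split also belong to different clusters. Within PEP-like neurons alone Sema6a was higher in 8 of 11 samples (85.3 against 73.2 CPM) and Plxnd1 lower in 8 of 11, where 12.4% of all genes were higher and 8.00% lower in at least 8 samples.

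**Figure D3:**
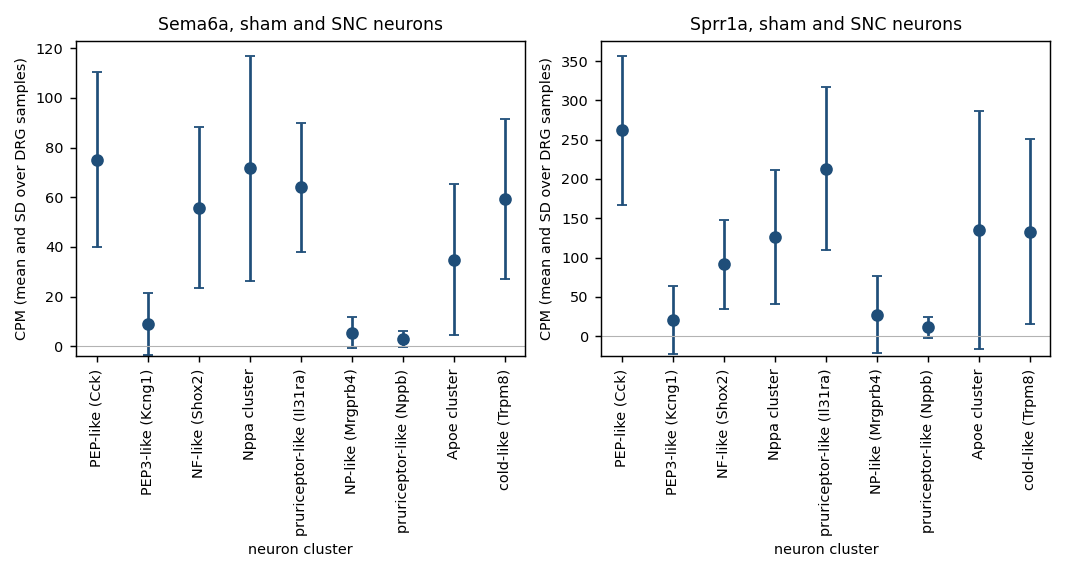
Sema6a (left) and Sprr1a (right) in 9 of the 10 dye-labelled clusters (x axis), as mean CPM over DRG samples (points) with the SD (bars) on a linear y axis. The PEP3-like, NP-like and Nppb-led pruriceptor-like clusters are the lowest 3 in both panels, at 2.85 to 8.93 CPM of Sema6a and 11.1 to 27.1 CPM of Sprr1a.

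The comparison of SNC with sham asks which guidance genes moved in the labelled neurons after the crush. None of the 42 genes passed an adjusted p of 0.05 at 1, 3 or 7 dpi, and nor did any other gene (0% of 14239 genes tested by edgeR's quasi-likelihood test on the UMIs summed per DRG sample, with Benjamini-Hochberg adjustment). At an unadjusted p under 0.05 there were 3 guidance genes at 1 dpi, where 8.73% of all genes had one, 2 at 3 dpi (4.17%) and 0 at 7 dpi (3.34%). DESeq2 called 9 genes at 1 dpi, 1 at 3 dpi and 0 at 7 dpi, of which 0 were guidance genes. The 3 comparisons share their sham samples, and their p-values measure only the spread between DRG samples, which the labels do not tie to single rats. In sums over neurons, fewer cells of a type and less RNA per cell cannot be told apart.

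Of the 42 genes, 23 were higher at 1 dpi (median log2 fold change 0.15), 24 at 3 dpi (0.08) and 26 at 7 dpi (0.08), where 49.3, 49.4 and 48.8% of all genes were higher and the median over all genes was within 0.01 of 0. With the 12 SNC samples pooled, 26 were higher (median 0.08, with 48.9% of all genes higher), 3 had an unadjusted p under 0.05 (5.81% of all genes) and 0 were called by edgeR or DESeq2. Both neuropilins were higher at each time, both ephrin-A ligands lower at each time, and the 3 EphB receptors lower at 3 dpi, none past the test. Between 7 and 1 dpi, 21 were higher and 21 lower (median -0.01, with 51.7% of all genes higher), and between 3 and 1 dpi 16 were higher and 26 lower (median -0.08, with 49.3% of all genes higher). In both of these comparisons 3 guidance genes had an unadjusted p under 0.05, beside 6.63 and 3.08% of all genes, and edgeR called 0 genes. DESeq2 called 21 and 6 genes there, 0 of them guidance genes.

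**Figure D4:**
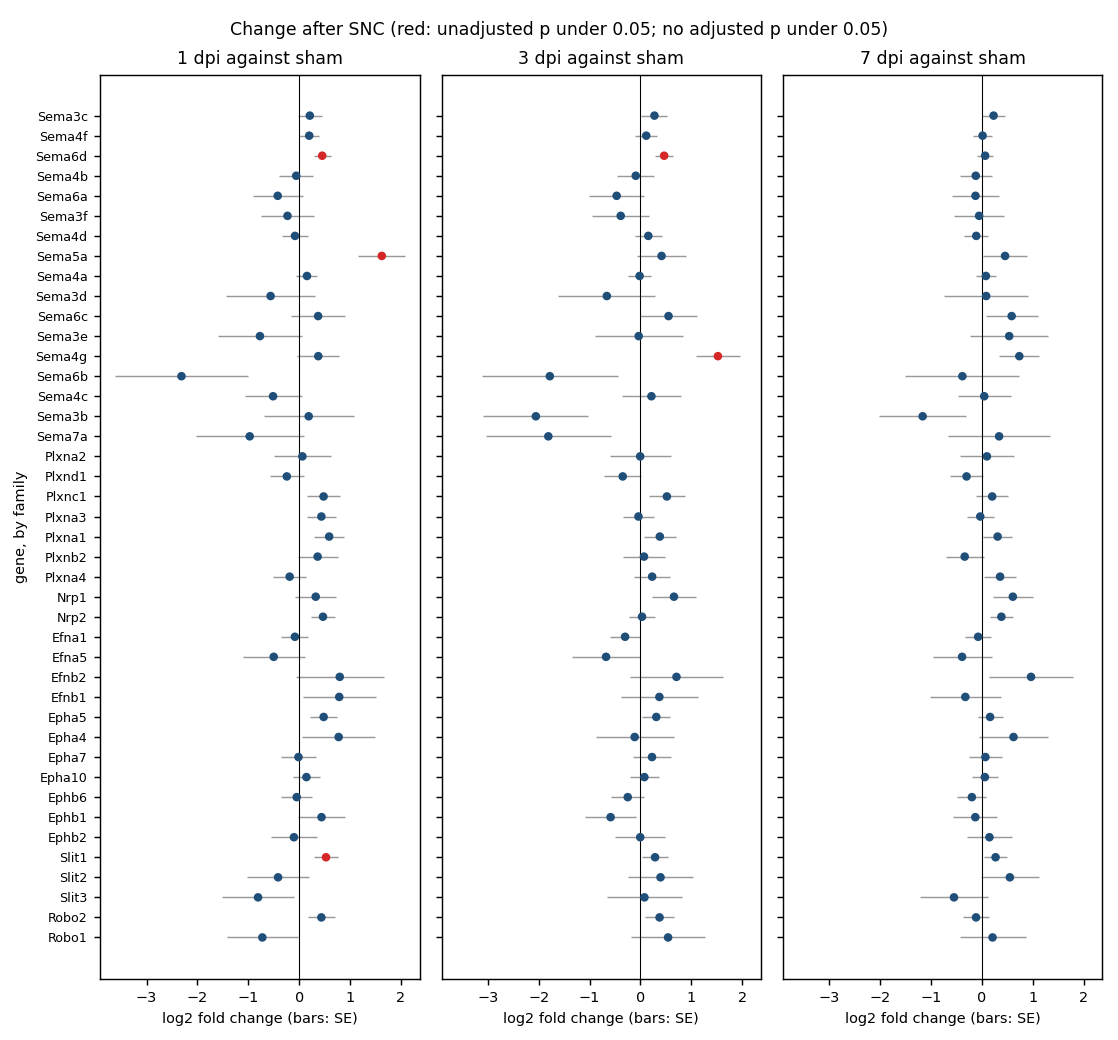
Log2 fold change of each guidance gene (y axis, by family) at 1, 3 and 7 dpi against sham, from edgeR, with its standard error (bars); red points have an unadjusted p under 0.05. The 5 red points are Sema6d, Sema5a and Slit1 at 1 dpi and Sema6d and Sema4g at 3 dpi, and none has an adjusted p under 0.05.

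Sema5a had the lowest p of the guidance genes at 1 dpi. Its levels were 11.5, 16.5, 37.7 and 49.5 CPM at 1 dpi and 3.75, 9.74, 10.3 and 10.9 CPM in sham. The groups did not overlap, as was so for 3.39% of all genes and for 1 of the 42. The log2 fold change was 1.63 (SE 0.46, adjusted p = 0.518 by edgeR). The 2 high values were those of samples 17-1 and 17-2, in which the Nppa cluster, where Sema5a is among the leading genes, made up 16.7 and 25.0% of the neurons, against 4.17 to 11.5% in the sham samples, and the part of that share in the result was not tested. At 3 dpi the levels were 9.06, 9.96 and 16.3 CPM and at 7 dpi 6.90 to 23.5 CPM, both overlapping sham. The difference from 1 dpi was -1.21 (SE 0.50, adjusted p = 0.984) at 3 dpi and -1.17 (SE 0.42, adjusted p = 0.706) at 7 dpi.

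Sema6d was low in sham, at 37.2, 44.3, 50.8 and 64.0 CPM. It was at 57.9, 61.5, 73.3 and 90.6 CPM at 1 dpi and at 62.4, 69.8 and 74.3 CPM at 3 dpi, so that each group reached below the highest sham sample. The log2 fold changes were 0.45 (SE 0.17, adjusted p = 0.534) and 0.46 (SE 0.18, adjusted p = 0.966) by edgeR. At 7 dpi it was at 48.4 to 66.4 CPM, within the range of sham but for 1 sample, and 0.39 lower than at 1 dpi on the log2 scale (log2 fold change -0.39, SE 0.16, adjusted p = 0.724). Over all 12 SNC samples its log2 fold change was 0.33 (SE 0.14, adjusted p = 0.844). Slit1 was at 26.0, 31.3, 45.5 and 46.5 CPM at 1 dpi and at 13.5, 24.2, 29.6 and 30.9 CPM in sham, with a log2 fold change of 0.53 (SE 0.24, adjusted p = 0.569).

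Sema4g, a class 4 semaphorin near the lower end of the list, was at 1.79, 2.22 and 2.99 CPM at 3 dpi and at 0.50, 0.635, 0.832 and 1.09 CPM in sham. It and Plxna1, a semaphorin receptor (18.6, 19.1 and 20.3 CPM against 12.5 to 16.4 CPM), were the 2 guidance genes whose groups did not overlap at 3 dpi, where 5.70% of all genes did not. The log2 fold change of Sema4g was 1.52 (SE 0.43, adjusted p = 0.966) at 3 dpi, 0.74 (SE 0.39, adjusted p = 1.00) at 7 dpi, where it lay between 0.840 and 1.73 CPM, and 0.88 (SE 0.35, adjusted p = 0.844) over all SNC samples. From 1 to 3 dpi it was 1.15 (SE 0.42, adjusted p = 0.984). Sema3b showed the largest difference in the other direction at 3 dpi, with levels of 0.206, 0.233 and 0.574 CPM against 0.182, 0.499, 1.13 and 4.25 CPM in sham, a log2 fold change of -2.06 (SE 1.03, adjusted p = 0.966). The highest of these was sample Xin, in which 29.2% of the neurons belonged to the Apoe cluster, where Sema3b was highest. From 1 to 3 dpi the difference of Sema3b was -2.25 (SE 1.01, adjusted p = 0.984).

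At 7 dpi no guidance gene lay wholly above or below sham (1.06% of all genes did), nor did any over the 12 SNC samples (0.0632%). After Sema4g, the lowest p belonged to the neuropilins. Nrp2 was at 22.9, 27.6, 28.9, 30.8 and 34.8 CPM against 10.2, 19.1, 27.4 and 29.1 CPM in sham, a log2 fold change of 0.38 (SE 0.23, adjusted p = 1.00), and Nrp1 at 17.8 to 54.7 against 4.25 to 36.9 CPM, a log2 fold change of 0.61 (SE 0.39, adjusted p = 1.00). The direction of Nrp1 turned when only PEP-like neurons were summed. Robo2 was at 98.7, 101, 113 and 118 CPM at 1 dpi and at 62.3, 62.4, 75.1, 79.6 and 85.0 CPM at 7 dpi, the only guidance gene whose groups did not overlap between these times (2.37% of all genes), with a log2 fold change of -0.55 (SE 0.26, adjusted p = 0.750). Sham samples lay on both sides, at 25.0 to 104 CPM. Between 3 and 1 dpi the groups of Robo1, Sema4g and Nrp2 did not overlap (8.61% of all genes), with Robo1 at 1.79 to 4.43 CPM against 1.06 to 1.61 CPM, and with Nrp2 apart by less than the digits printed (25.8 CPM in the highest sample at 3 dpi and in the lowest at 1 dpi).

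Sema6a did not separate SNC from sham. It was at 28.1, 34.2, 57.0 and 107 CPM in sham, 34.8 to 52.4 CPM at 1 dpi, 40.3 to 43.7 CPM at 3 dpi and 13.0 to 85.3 CPM at 7 dpi. The 3 samples of 7 dpi reverse-transcribed in the earlier year were at 69.8, 80.1 and 85.3 CPM and the 2 of the later year at 13.0 and 24.1 CPM. In sham, the 3 samples of the earlier year lay between 34.2 and 107 CPM and that of the later year at 28.1 CPM, so that within both groups every earlier sample was above every later one. The part of the year in these levels was not tested.

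The 2 sham collections differed widely. Of the 42 guidance genes, 16 passed an adjusted p of 0.05 between the added and the dye-labelled sham neurons, 13 of them higher and 3 lower in the added sham, while 40.6% of the 15791 genes tested passed (edgeR's quasi-likelihood test, Benjamini-Hochberg adjustment). The share of the guidance genes was thus close to that of all genes. In all, 33 were higher and 9 lower (median log2 fold change 0.56), where 55.4% of all genes were higher (median 0.15). The rule on the mean level ran over both collections, so that a gene low in the dye-labelled neurons could meet it through the added ones. The count of higher genes is therefore not independent of the rule. The groups did not overlap for 9 genes above and 1 below, as for 27.6% of all genes. The collection, the batch and how the neurons were picked cannot be told apart here, and the kinds of neuron taken also differed. The summed vascular and fibroblast markers were at 4.54 to 14.8 CPM in the dye-labelled and 19.6 to 50.2 CPM in the added sham samples, with 6 of 7 detected and Cldn5 at 0. The glial markers were at 1430 to 2480 and 846 to 2070 CPM, with 12 of 13 detected and Kcnj10 at 0, and all 8 immune markers were detected at 11.0 to 37.4 and 8.24 to 19.1 CPM. Their part in the results was not tested.

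Sema6a had the lowest p and the largest fold change of the 42 genes. It was at 28.1, 34.2, 57.0 and 107 CPM in the dye-labelled sham and at 1.77 to 5.94 CPM (median 2.82) in the 7 added sham libraries, with no overlap. The log2 fold change was -4.23 (SE 0.40, adjusted p = 4.86e-05 by edgeR). It was found in 74.0% of all dye-labelled and 26.8% of the added sham neurons. The 12 SNC samples, at 13.0 to 85.3 CPM, also lay above every added sham library. Within NF-like neurons alone the log2 fold change was -3.13, past the test (adjusted p = 0.00640 by edgeR). Within the pruriceptor-like neurons it was -4.98 (adjusted p = 0.00105), but there the 2 collections held different clusters. The dye-labelled class joined the cluster led by Il31ra (64.0 CPM of Sema6a) with that led by Nppb (2.85 CPM), while the added class was 1 cluster, with leading genes such as Nppb, Sst and Ly86, at 1.59 CPM. Between the clusters led by Nppb alone, and between those led by Mrgprb4 and Cldn3, Sema6a was not tested, since it lay under the filter on low counts.

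Of the other semaphorins, Sema6d, Sema4d and Sema4b were higher in the added sham. Sema6d was at 116 to 164 CPM (median 132) in the added and at 37.2 to 64.0 CPM in the dye-labelled sham, with no overlap and a log2 fold change of 1.33 (SE 0.17, adjusted p = 0.000115), which was 0.78 (adjusted p = 0.0913 by edgeR) between the clusters led by Nppb. Sema4d, the ligand of B-class plexins, was at 22.7 to 52.4 CPM (median 32.6) against 5.50 to 11.6 CPM, a log2 fold change of 1.70 (SE 0.27, adjusted p = 0.000420). Sema4b was at 37 to 105 CPM (median 59.6) against 8.49 to 26.5 CPM, a log2 fold change of 1.64 (SE 0.33, adjusted p = 0.00203). Within NP-like neurons alone, where Sema4b was highest among the dye-labelled clusters, its log2 fold change was -0.25 (adjusted p = 0.241) by edgeR, and within NF-like neurons 1.03 (adjusted p = 0.0698). In the added sham neurons Sema4b was highest in the unnamed cluster led by Rbp2 (127 CPM), followed by the Cav1 cluster (99.8 CPM) and the NP-like cluster (89.8 CPM). Between the clusters of both collections led by Mrgprb4 and Cldn3, Sema4b was 0.25 (adjusted p = 0.222 by edgeR) and Sema4d 0.36 (adjusted p = 0.523). Sema4d was 0.79 (adjusted p = 0.217) within pruriceptor-like neurons. Sema3f and Sema4g also passed the test, at 14.0 to 117 and 0.632 to 14.5 CPM against 4.50 to 8.98 and 0.50 to 1.09 CPM.

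The Slit ligands and Robo2 were higher together. Robo2 was at 233 to 332 CPM (median 292) in the added and at 25.0, 78.9, 98.1 and 104 CPM in the dye-labelled sham, a log2 fold change of 1.81 (SE 0.29, adjusted p = 0.000472). It was past the test within NF-like neurons (0.75) as well, and also between the clusters led by Nppb (1.40) and between those led by Mrgprb4 and Cldn3 (0.71). Slit3 was at 9.21 to 16.2 CPM (median 14.4) against 0.499 to 5.45 CPM, a log2 fold change of 2.33 (SE 0.53, adjusted p = 0.00384), and was 1.05 (adjusted p = 0.181 by edgeR) within NF-like neurons. Slit1 (34.3 to 46.8 against 13.5 to 30.9 CPM) and Slit2 (11.2 to 108 against 1.75 to 16.9 CPM) passed the test, the second with overlapping groups, and Robo1 (2.21 to 6.36 against 0.999 to 3.66 CPM) did not.

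Among ephrins, Efnb1 was at 4.02 to 18.9 CPM (median 10.9) in the added and at 0.182 to 1.5 CPM in the dye-labelled sham, a log2 fold change of 3.66 (SE 0.61, adjusted p = 0.000548), which was 1.51 (adjusted p = 0.306 by edgeR) between the clusters led by Mrgprb4 and Cldn3. With so low a level in the dye-labelled sham, Efnb1 met the rule of 1 CPM mainly through the added sham neurons. The place of Efnb1 among the higher genes is therefore not independent of the rule. Efnb2 also passed, at 10.4 to 127 against 0.750 to 12.7 CPM. Efna1, whose promoter is printed above, was one of the 3 genes that were lower, at 61.3 to 129 CPM (median 73.2) against 91.6 to 202 CPM, with overlap. The other was Epha10, at 1.31 to 4.80 CPM (median 2.04) against 4.57 to 6.25 CPM, with overlap in 1 library. Of the plexins, Plxnd1 was at 91.2 to 159 CPM (median 98.4) against 28.6 to 52.6 CPM, a log2 fold change of 1.39 (SE 0.23, adjusted p = 0.000572). It passed the test within NF-like neurons (1.59) and between the clusters led by Mrgprb4 and Cldn3 (1.58), and did not between the clusters led by Nppb (0.86, adjusted p = 0.124 by edgeR). Plxna3 passed with overlapping groups, at 16.6 to 71.6 against 9.24 to 31.6 CPM. Neither neuropilin and none of the 3 EphB receptors passed.

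**Figure D5:**
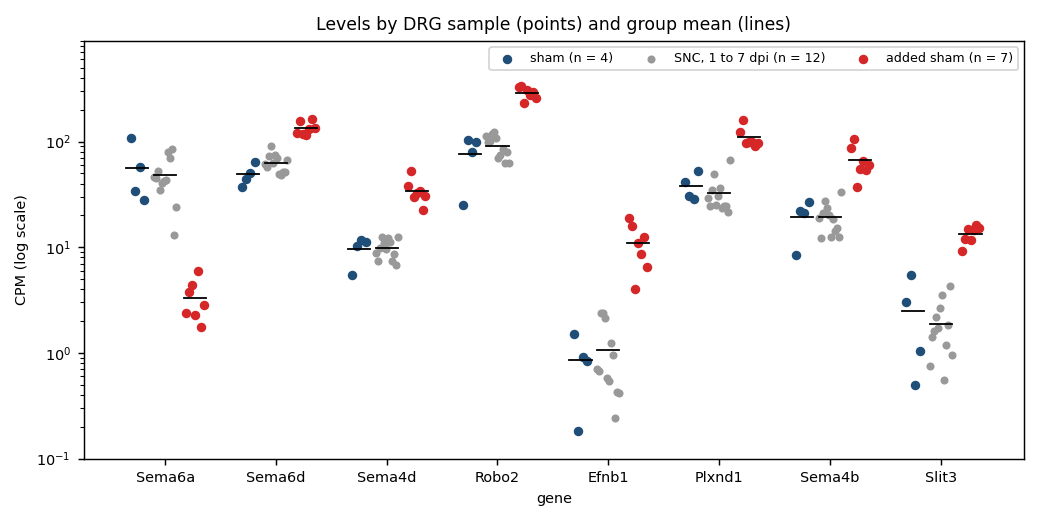
The 8 guidance genes with the lowest p between the sham collections (x axis), in CPM on a log scale, with 1 point per DRG sample for sham (n = 4), SNC at 1 to 7 dpi (n = 12) and added sham (n = 7), and lines at the group means. Sema6a is the only gene with the added sham libraries at the bottom (1.77 to 5.94 CPM), and for the other 7 genes they lie above all 4 sham samples.

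Within classes of the same name, the number of guidance genes past the test was 13 of 42 in NF-like neurons (27.2% of all genes), 12 of the 19 that could be tested in pruriceptor-like neurons (31.8%) and 15 of 26 in NP-like neurons (38.1%), and it was 19 of 42 with the NF-like neurons left out (46.1%). The NP-like clusters of the 2 collections are not alike, since Mrgprb4 and Cldn3 lead the dye-labelled one and Lpar3, Lmx1a and Iapp the added one. Between the clusters led by Nppb in both collections 4 of 18 passed (18% of all genes), and between those led by Mrgprb4 and Cldn3 10 of 33 (38.6%). These fits were added after the data had been seen and rest on 2 or 3 dye-labelled samples, other than that without NF-like neurons.

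Among the added sham libraries, days 1 to 7 were compared with day 0, to see how sham surgery over time affects the guidance genes. Of 42 genes 0 passed an adjusted p of 0.05, as of all 16175 genes (0%), by edgeR's quasi-likelihood test with Benjamini-Hochberg adjustment. An unadjusted p under 0.05 was found for 12 guidance genes, 10 of them higher after day 0, and for 9.29% of all genes. DESeq2 called 196 genes (1.23%), 5 of them guidance genes. In all, 32 were higher and 10 lower (median log2 fold change 0.75), where 51.2% of all genes were higher (median 0.01). The groups did not overlap for 11 genes above and 1 below, as for 10.3% of all genes. The makeup of the libraries moved with the day: S1 and S2 at day 0 held no NF-like neuron and S7 held 14, while the later libraries held 7 to 44, the most in S4 at day 3 (51.2% of its cells). PEP-like neurons differed too, with none in S1, 3 in S2 and 22 in S7, against 17 to 38 in the later libraries. The PEP-like clusters of the 2 collections are not alike. The added one was led by Kcng1, with 3 of 4 PEP3-like markers high and Cck not high, while Cck led the dye-labelled one. In the added one 9 of 13 glial markers were also high. NP-like neurons made up 40.9% of S1 and 34.8% of S2, against 4.65 to 13.6% of the other libraries. Without S7, 18 guidance genes and 1992 of all genes (11.9%) were called, and without any other library 0. The part of the kinds of neuron in these differences was not tested beyond leaving out the NF-like neurons. After that 0 guidance genes were called, and 11 had an unadjusted p under 0.05, as had 6.73% of all genes.

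Of the 8 genes with the lowest p, Sema6b, Sema3d and Efnb2 are ligands that were highest in the NF-like cluster of the added sham neurons, and Slit2 was at 89.1 CPM there and at 94.5 CPM in the pruriceptor-like cluster. Sema6b was at 0.143, 0.379 and 0.819 CPM at day 0 and at 2.58 to 36.1 CPM later, the highest in S4, with a log2 fold change of 4.72 (SE 1.18, adjusted p = 0.523 by edgeR). It was 3.15 without S4 and 2.69 without the NF-like neurons. Below 1 CPM at day 0 and at 0 to 2.85 CPM in the dye-labelled samples, Sema6b met the rule (mean 2.53 CPM) mainly through these later libraries. Its place among the higher genes is therefore not independent of the rule. Sema3d was at 1.36, 2.21 and 6.63 CPM and at 9.23 to 19.5 CPM later, a log2 fold change of 2.01 (SE 0.54, adjusted p = 0.523). Slit2 was at 11.2, 16.9 and 17.8 CPM and at 29.1, 36.5, 39.4 and 108 CPM later, a log2 fold change of 1.80 (SE 0.49, adjusted p = 0.523), which was 1.17 without S4. In each of these 3 genes every later library lay above every library of day 0.

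Sema4g was at 0.632, 1.53 and 1.79 CPM at day 0 and at 2.82, 4.62, 5.77 and 14.5 CPM later, a log2 fold change of 2.40 (SE 0.69, adjusted p = 0.523 by edgeR), which was 1.72 without S4. Sema3f was at 14.0, 16.4 and 18.7 CPM and at 25.6, 26.7, 33.0 and 117 CPM later, a log2 fold change of 1.64 (SE 0.57, adjusted p = 0.523), which was 0.77 without S4. Efnb2 was at 10.4, 12.2 and 36.5 CPM and at 35.3, 39.2, 61.3 and 127 CPM later, overlapping through S7, with a log2 fold change of 1.77 (SE 0.59, adjusted p = 0.523), which was 1.20 without S4. Ephb1, a receptor of ephrin-B ligands, was at 0.316, 0.50 and 5.81 CPM and at 9.54 to 19.2 CPM later, a log2 fold change of 2.65 (SE 0.90, adjusted p = 0.523). In S7, which held 14 NF-like and 22 PEP-like neurons, the level of Ephb1 lay apart from both other libraries of day 0. Ephb1 was at 14.6 CPM in each of these clusters of the added sham neurons, and their part in its level was not tested. Efna1 was the gene that was lower throughout, at 80.6, 108 and 129 CPM at day 0 and 61.3 to 73.2 CPM later, with a log2 fold change of -0.66 (SE 0.19, adjusted p = 0.523).

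Other genes of axon guidance, outside the 9 families, were read beside these from a list of 54, which held netrin receptors, repulsive guidance molecules, collapsin response mediators and regulators of small GTPases. After SNC 0 of the 49 tested passed an adjusted p of 0.05 by edgeR at any time, with 8, 5 and 1 at an unadjusted p under 0.05 at 1, 3 and 7 dpi, beside 8.73, 4.17 and 3.34% of all genes. Between the sham collections 18 were higher and 11 lower in the added sham past the test, where 40.6% of all genes passed, and between days of the added sham 0 of 50 passed, with 2 at an unadjusted p under 0.05 (9.29% of all genes).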

How the data were processed

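UMI counts of single DRG neurons were used as deposited. Per the labels and the methods, the authors aligned the reads to Rnor_6.0 with STAR, gave them to genes by featureCounts and removed repeated molecules with UMI-tools, so that each deposited value is a whole count per gene and neuron without normalization. Quality control asked for 500 genes and 1000 UMIs per neuron and a share of the 13 genes named Mt- below 5%. Counts of the neurons kept were added up per DRG sample (the 2 libraries of sample S together), and CPM are these sums over the total of the sample. The precision of a value is the spread between DRG samples.

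Samples were compared with edgeR 4.0.16 (quasi-likelihood test, TMM, filterByExpr, Benjamini-Hochberg over all genes) in R 4.3.3. The 16 dye-labelled samples entered 1 fit with 4 groups, and the sham collections and the days of the added sham 1 fit each. Clusters came from Seurat 5.3.0 with the settings of the study (2000 variable genes less the guidance genes, 40 principal components, resolution 0.5), for each collection alone and without doublet removal, since neurons had been picked by hand. A marker was high at 1.5 times the level of the other cells and with a UMI in 25% of the cluster. The members and lists were chosen with earlier results of these data known. Any member could be named for its level. A log2 fold change with its error was given for members with an unadjusted p under 0.05, at most 8 per comparison by lowest p, or for the 3 of lowest p where fewer had one.

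Other settings tried were DESeq2 1.42.0, the DESeq2 size factors within edgeR, low genes kept, neurons thinned to 20000 UMIs, limma 3.58.1 on mean CPM per neuron, removal of the 10% of neurons richest in glial RNA, no quality control, each sample left out, joining 17-1 to 17-2 and 19-1 to 19-2, a term for the reverse transcription year, the earlier year alone, and, added after seeing the data, single types of neuron, matched clusters and a block for the date of reverse transcription. Values of 1 unnamed dye-labelled cluster, and a fit on that cluster alone, in which the direction of Nrp2 at 7 dpi turned, are not reported here and not counted among the alternatives. The fits were tested on simulated data. Of genes given a log2 change of 1, 34.3% were called at 1 dpi against sham, 20.9% between the sham collections and 13.4% between days of the added sham. With a log2 change of 2 it was 66.7, 54.5 and 45.5%, so that many real changes of this size would be missed. SciPy 1.17.1, pandas 2.3.3, NumPy 2.4.6 and Python 3.11.15 served for the sums and matplotlib 3.10.9 for the figures. No pair of neurons held the same counts, and samples of a group differed by at least 11.6 times the sampling noise.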

Additional observations from a re-analysis of the deposited data

Results flagged for a closer look

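Values of the 21 guidance genes with a printed fold change were examined in each group of 4 to 7 samples, 84 groups in all, for a highest or lowest sample whose gap to the next one took more of the whole range than Dixon's 95% critical value. Chance alone passes about 5% of groups, and 11 passed. They gathered in a few samples.

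Library S4, the added sham library of day 3 and the one with the most NF-like neurons, was high for 4 genes among the 7 added sham libraries. Sema6b was at 36.1 CPM there and 6.72 CPM in the next library, Sema3f at 117 and 33.0 CPM, Slit2 at 108 and 39.4 CPM and Sema4g at 14.5 and 5.77 CPM.

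At 7 dpi, sample 19-2 was high for Plxnd1 (67.4 CPM, next 24.8 CPM), Sema4b (33.3 CPM, next 18.4 CPM) and Sema6d (66.4 CPM, next 52.0 CPM), and sample 19-1 for Sema3f (16.3 CPM, next 6.82 CPM) and Sema6b (2.85 CPM, next 0.716 CPM). Of their 24 neurons each, the labels count 20 indirectly and 4 directly injured in 19-2, and the reverse in 19-1. At 1 dpi, sample 17-2, with 8 indirectly and 16 directly injured neurons, was high for Sema3f (11.7 CPM, next 4.39 CPM). In sham, sample Xin was low for Sema5a (3.75 CPM, next 9.74 CPM).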

How the results depend on the processing

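The number of guidance genes called stayed at 0 in the 6 comparisons of dye-labelled samples under the 17 to 27 alternatives given for each, and between the sham collections at 11 to 16 with a sample left out (16 with all) and 12 to 19 under the others, apart from fits on clusters with the same leading genes in both collections, 4 (of 18) for Nppb and 10 (of 33) for Mrgprb4 and Cldn3. Between days 1 to 7 and day 0 of the added sham it was 0, but 5 with DESeq2 and 0 to 18 with a library left out, 18 without S7. Of all genes, 1.23% passed there with DESeq2 and 11.9% without S7. Between the sham collections 30.9 to 41.8% of all genes passed with a sample left out. Under the others it was 23.2 to 48.4%, matched clusters apart. Of 34 named log2 fold changes under 653 alternative values given here, 630 kept their direction and side of the threshold, 10 passed it and 10 lost it. The other 3 turned: Sema5a over all SNC samples was -0.12 with a block for the date of reverse transcription, Nrp1 at 7 dpi was -0.07 in PEP-like neurons alone, and Sema4b between the sham collections -0.25 in NP-like neurons alone. The cause was not tested. Most of the 34 had not passed the test in the main fit, so that failing it again counted as kept. The size of a change did not enter the count. Leaving out sample 17-2 moved Sema5a at 1 dpi to 1.26, and the year as a term to 1.01. Of the leading clusters of the 42 genes, 33 were matched at resolution 0.3, 42 at 0.8, 40 with 20 principal components and 41 with guidance genes kept. By pooled CPM the rule took 44 genes. The samples share no replicate numbers that pair them, but 9 of the 16 dye-labelled samples share a date of reverse transcription with a sample of another group (2 sham, 2, 1 and 4 at 1, 3 and 7 dpi). A replicate block by that date, added after seeing the data, called 0 guidance genes in the 6 comparisons, and gave 0.92 for Sema5a at 1 dpi and -0.45 for Sema3b at 3 dpi. With 24 neurons in samples Xin, 17-1, 17-2, 19-1 and 19-2, the share of each type of neuron, and with it the level of most guidance genes, rests on few cells.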

Other observations

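The values here were chosen after the data had been seen. The labels count 20 of 24 neurons as directly injured in sample 19-1 of 7 dpi and 4 of 24 in 19-2, the most unequal of the samples. In sample 17-2 of 1 dpi they count 16 of 24. With 1 sample each there is no test. Plxna2 was at 73.2 CPM in 19-1 and 14.8 CPM in 19-2, Efnb2 at 33.7 and 0 CPM, Epha4 at 17.2 and 0.315 CPM, Slit2 at 31.7 and 8.19 CPM, and Sema7a at 6.12 and 0 CPM. In the other direction, Plxnd1 was at 21.6 and 67.4 CPM, Sema4b at 12.5 and 33.3 CPM and Efna1 at 109 and 210 CPM. NF-like neurons were 6 of 24 in 19-1 and 0 in 19-2, and the part of that difference was not tested. Sema6a was low in both, at 13.0 and 24.1 CPM, against 69.8 to 85.3 CPM in the other 3 samples of that day.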
